A study of Danio rerio with 10 samples.

Results

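The kidney of the zebrafish embryo is the pronephros, and 8 genes that mark its tubule were followed here across every group of an RNA-seq study of *rpgrip1l*. They are the transporter and channel genes *slc12a1*, *clcnk*, *bsnd*, *slc12a3*, *slc20a1a* and *slc4a4a*, the cadherin gene *cdh17* and the transcription factor gene *pax2a*. They were chosen by name and matched to the gene table by symbol, in any case and with or without the copy letter, which gave 11 of the 32057 identifiers counted. *slc12a1*, *clcnk*, *bsnd*, *slc12a3* and *cdh17* each had 1 identifier. For *slc20a1a*, *slc4a4a* and *pax2a* the table gives 2 identifiers under the symbol without its copy letter and does not say which copy each is, so both are given, by identifier.

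*rpgrip1l* encodes a protein of the ciliary transition zone, the gate at the base of the cilium. RNA was taken from pools of 30 to 35 whole embryos, with 2 libraries in each of 5 groups: *rpgrip1l*-/- larvae at 5 days post fertilization (dpf), wild-type (WT) larvae at 5 dpf, *rpgrip1l*-/- embryos with a curled-down tail (CDT) at 2 dpf, *rpgrip1l*-/- embryos with a normal tail at 2 dpf, and WT embryos at 2 dpf. All mutants carry an out-of-frame CRISPR/Cas9 allele, in a line that the paper states was made on the AB strain. They came from crosses of homozygous fish, whereas WT came from crosses of the AB strain, so genotype and parents cannot be told apart. For the 5 dpf mutants the labels give no tail form.

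As background, the pronephros filters blood at a glomerulus and passes the filtrate through paired tubules with proximal and distal segments to a duct that opens at the cloaca. Cells of the proximal segments take up phosphate, bicarbonate, sugars and amino acids, and cells of the distal segments take up sodium and chloride. Motile cilia in the tubule move the fluid, and loss of ciliary proteins is a known cause of kidney cysts in fish and in mammals. The study that reported these data saw no pronephric cysts in its *rpgrip1l* mutants during the first week. It also reported that their ciliary tufts in the anterior duct were present. Several of these genes are also used outside the kidney: *pax2a* in the midbrain-hindbrain boundary, eye, ear and thyroid, and sodium and bicarbonate transporters in the ionocytes of the skin.

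The libraries held 9101264 to 17536165 counts on genes. The members had modest counts, from 3 in a library for *pax2* ENSDARG00000032578 to 1930 for *slc20a1* ENSDARG00000010641, and all 11 passed the filter on low counts at 2 dpf and 10 of 11 at 5 dpf. Levels are given as CPM, the count of a gene scaled to library size, after TMM scaling over the 10 libraries. The *rpgrip1l* transcript had 11 to 36 counts in mutant libraries and 20 to 26 in WT libraries, and since the allele is stated to escape nonsense-mediated decay it does not check the labels. The mitochondrial share of counts was 0.92% in replicate 2 of the 5 dpf mutants and 0.34% to 0.48% in the other 9 libraries. TMM factors were 1.17 to 1.21 in the mutants at 2 dpf and 0.81 to 0.84 in WT at 2 dpf. Against WT, the median log2 fold change of all genes was 0.48 for CDT mutants and 0.46 for normal-tail mutants with library size alone, and 0.03 and 0.01 with TMM. Changes are therefore given relative to the TMM scaling.

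**Figure D1:**
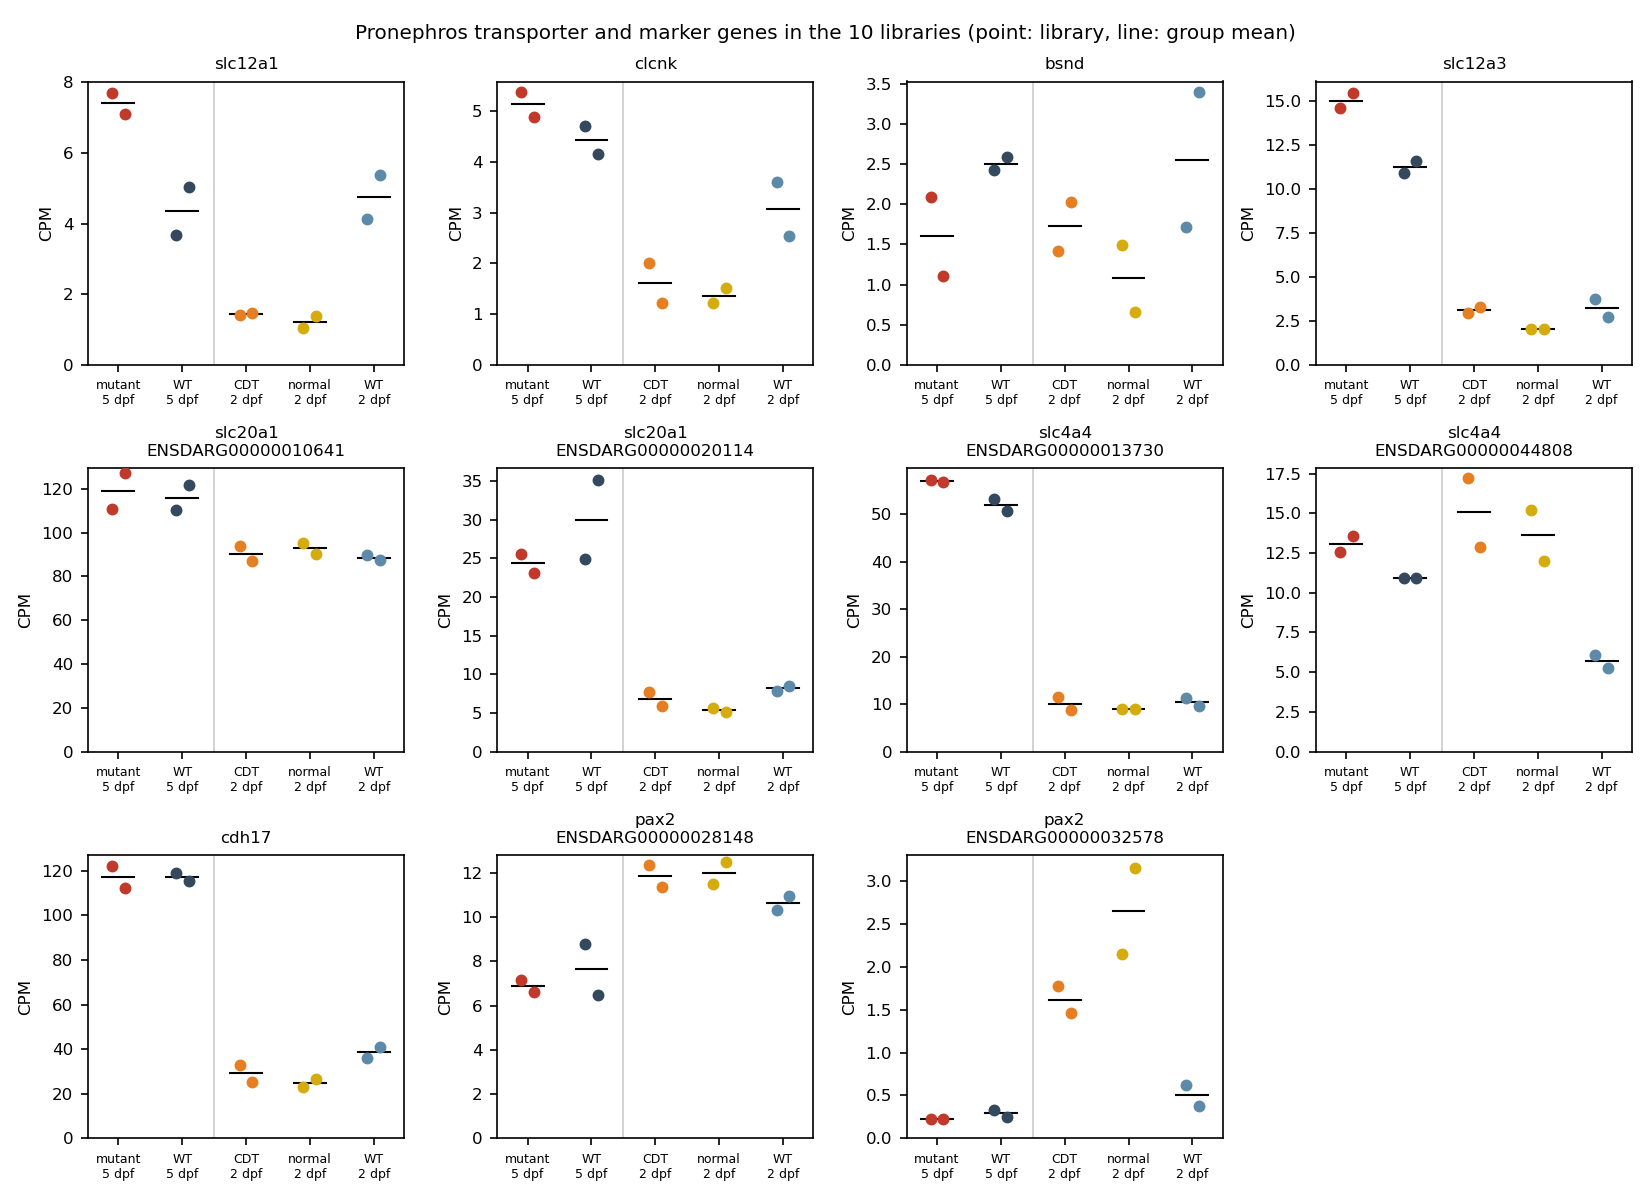
CPM (vertical axis, from 0) of the 11 identifiers in each of the 10 libraries, grouped along the horizontal axis by genotype and stage; each point is a library and each line the mean of 2 libraries. For *slc12a1* the 4 mutant libraries at 2 dpf lie between 1.03 and 1.46 CPM, below the WT libraries at 4.14 and 5.37 CPM, whereas the mutant libraries at 5 dpf lie above WT.

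At 2 dpf, the distal tubule cotransporter gene *slc12a1* was about 3 to 4 times lower in both kinds of mutant embryo, while *slc4a4* ENSDARG00000044808 and *pax2* ENSDARG00000032578 were higher. The chloride channel gene *clcnk* was about 2 times lower in both, but neither *clcnk* call was made by DESeq2 or with library size alone. In CDT mutants against WT, 2 of 11 identifiers were called higher and 3 lower (adjusted p under 0.05, quasi-likelihood test of edgeR, Benjamini-Hochberg over all genes). Among all 19636 genes tested in that comparison 20.0% were called higher and 20.4% lower. In normal-tail mutants against WT, 2 of 11 were called higher and 5 lower, where the shares over all genes were 19.2% and 20.4%. In both comparisons those called higher include *pax2* ENSDARG00000032578, which passed the filter on low counts only through the mutant libraries. The counts of members called were thus near those of the transcriptome at large in CDT mutants, and the median log2 fold change of the members was 0.01 in CDT mutants, against 0.03 for all genes. In normal-tail mutants it was −0.56 for the members and 0.01 for all genes. With library size alone the split was 5 higher and 1 lower in CDT mutants, where 52.0% of all genes were called higher and 4.70% lower. In normal-tail mutants it was 4 higher and 1 lower, where the shares over all genes were 49.6% and 5.08%.

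*slc12a1* encodes the sodium-potassium-chloride cotransporter of the early distal segment, the target of loop diuretics in the mammalian kidney. Its level was 1.42 and 1.46 CPM in CDT mutants and 1.03 and 1.38 CPM in normal-tail mutants, against 4.14 and 5.37 CPM in WT at 2 dpf. The means were 1.44 ± 0.029 CPM in CDT mutants and 1.205 ± 0.25 CPM in normal-tail mutants, against 4.76 ± 0.87 CPM in WT (SD, n = 2 each), and all 4 mutant libraries lay well below both WT libraries. The log2 fold change was −1.63 in CDT mutants (SE 0.32, adjusted p = 3.9e-05) and −1.87 in normal-tail mutants (SE 0.34, adjusted p = 1.4e-05). The call was kept under all 8 alternative settings and with any 1 library left out, at adjusted p up to 0.0036 in CDT mutants and 0.0015 in normal-tail mutants. In whole-embryo RNA, fewer tubule cells and less of the transcript in each cell cannot be told apart.

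*clcnk* encodes the basolateral chloride channel through which chloride leaves the distal cells, and *bsnd* its obligate accessory subunit, barttin. *clcnk* stood at 2.01 and 1.21 CPM in CDT mutants and at 1.21 and 1.51 CPM in normal-tail mutants, against 3.59 and 2.55 CPM in WT. The groups did not overlap, and the log2 fold changes were −0.86 in CDT mutants (SE 0.34, adjusted p = 0.0413) and −1.09 in normal-tail mutants (SE 0.37, adjusted p = 0.0150). Neither call was made by DESeq2 (adjusted p = 0.170 and 0.086) or with library size alone (−0.41, adjusted p = 0.318 in CDT mutants; −0.64, adjusted p = 0.1396 in normal-tail mutants), and upper quartile scaling did not make the CDT call (adjusted p = 0.0537). Without replicate 1 of WT the log2 fold changes were −0.57 in CDT mutants and −0.80 in normal-tail mutants (adjusted p = 0.362 and 0.208). The CDT call was also lost without replicate 2 of the CDT mutants (−0.54, adjusted p = 0.316), and the normal-tail call without replicate 1 (−0.97, adjusted p = 0.0927) or replicate 2 (−1.28, adjusted p = 0.0535) of the normal-tail mutants.

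*bsnd* had 1.42 and 2.03 CPM in CDT mutants and 1.49 and 0.66 CPM in normal-tail mutants, against 1.72 and 3.39 CPM in WT, from 10 to 36 counts a library. The CDT libraries overlapped with WT. The normal-tail libraries lay below WT, at −1.22 on the log2 scale (SE 0.43, adjusted p = 0.0199). This call rested on 2 libraries: it was lost without replicate 2 of the normal-tail mutants (−0.67, adjusted p = 0.343) and without replicate 2 of WT (−0.69, adjusted p = 0.359), and it was made neither by DESeq2 (adjusted p = 0.101) nor with library size alone (−0.77, adjusted p = 0.129).

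*slc12a3*, the thiazide-sensitive sodium-chloride cotransporter gene of the late distal segment, did not pass the test in either kind of mutant. It had 2.96 and 3.31 CPM in CDT mutants, inside the WT range of 2.73 to 3.75 CPM. The normal-tail libraries, at 2.06 and 2.04 CPM, were below both WT libraries (log2 fold change −0.61, SE 0.32, adjusted p = 0.122). With all 10 libraries in 1 fit it was called lower in normal-tail mutants (−0.68, adjusted p = 0.0481).

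Among the proximal genes, the *slc20a1* symbol stands for a sodium-phosphate cotransporter and *slc4a4* for the electrogenic sodium-bicarbonate cotransporter of the basolateral membrane. *slc20a1* ENSDARG00000010641 was nearly level, at 86.9 to 95.4 CPM in the 4 mutant libraries, against 89.6 and 87.5 CPM in WT. *slc20a1* ENSDARG00000020114 had 7.70 and 5.91 CPM in CDT mutants and 5.61 and 5.07 CPM in normal-tail mutants, against 7.89 and 8.49 CPM in WT. The change in normal-tail mutants, on the log2 scale, was −0.56 (SE 0.20, adjusted p = 0.0265). That call was not made by DESeq2 (adjusted p = 0.1198) or with library size alone (−0.11, adjusted p = 0.689). It was also lost whichever of the 4 libraries compared was left out: the adjusted p was 0.0515 without replicate 1 and 0.179 without replicate 2 of the normal-tail mutants, and 0.0659 without replicate 1 and 0.114 without replicate 2 of WT, at log2 fold changes of −0.62 to −0.48.

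The *slc4a4* identifiers parted. ENSDARG00000013730 had 8.71 to 11.4 CPM in the 4 mutant libraries, against 11.2 and 9.52 CPM in WT, and did not pass the test. ENSDARG00000044808 had 17.2 and 12.9 CPM in CDT mutants and 15.2 and 11.98 CPM in normal-tail mutants, against 6.10 and 5.28 CPM in WT. Every mutant library held about 2 to 3 times the WT level. The log2 fold change was 1.47 in CDT mutants (SE 0.18, adjusted p = 3.0e-09) and 1.30 in normal-tail mutants (SE 0.18, adjusted p = 1.3e-07), and the call was kept in both under all 8 alternatives and with any 1 library left out. Another copy of this family, *slc4a4b*, is known from skin ionocytes of zebrafish, and the table does not say which copy this identifier is.

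*cdh17* encodes a cadherin that runs along the whole pronephric tubule and duct in zebrafish, and its human counterpart is found in intestine. It had 32.9 and 25.3 CPM in CDT mutants and 23.1 and 26.5 CPM in normal-tail mutants, against 36.3 and 40.9 CPM in WT. All 4 mutant libraries lay below WT, by less than *slc12a1* did: the log2 fold change was −0.33 in CDT mutants (SE 0.12, adjusted p = 0.0196) and −0.56 in normal-tail mutants (SE 0.12, adjusted p = 0.00017). DESeq2 did not make the CDT call (−0.35, adjusted p = 0.081). The normal-tail call held with any 1 library left out, but not with library size alone (−0.11, adjusted p = 0.478). The CDT call was lost, with −0.15 without replicate 2 of the CDT mutants (adjusted p = 0.363) and −0.25 without replicate 2 of WT (adjusted p = 0.211), and its sign turned with library size alone (0.13, adjusted p = 0.377).

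*pax2a* encodes a transcription factor that specifies the tubule and duct. The identifier with the higher counts, ENSDARG00000028148, had 12.4 and 11.4 CPM in CDT mutants and 11.5 and 12.5 CPM in normal-tail mutants, against 10.3 and 10.9 CPM in WT, and was not called. ENSDARG00000032578 had 30 and 23 counts in CDT mutants and 23 and 48 counts in normal-tail mutants, against 8 and 4 counts in WT. That was 1.78 and 1.46 CPM in CDT mutants and 2.15 and 3.16 CPM in normal-tail mutants, against 0.63 and 0.38 CPM in WT. This identifier passed the filter on low counts only through the mutant libraries, so the filter favored a call of higher. With at least 10 counts asked for in every library it was not tested. On the log2 scale it was higher by 1.72 in CDT mutants (SE 0.49, adjusted p = 0.0038) and by 2.45 in normal-tail mutants (SE 0.46, adjusted p = 2.8e-05). The CDT call was lost without replicate 2 of WT (1.43, adjusted p = 0.0562), and the normal-tail call was kept with any 1 library left out.

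**Figure D2:**
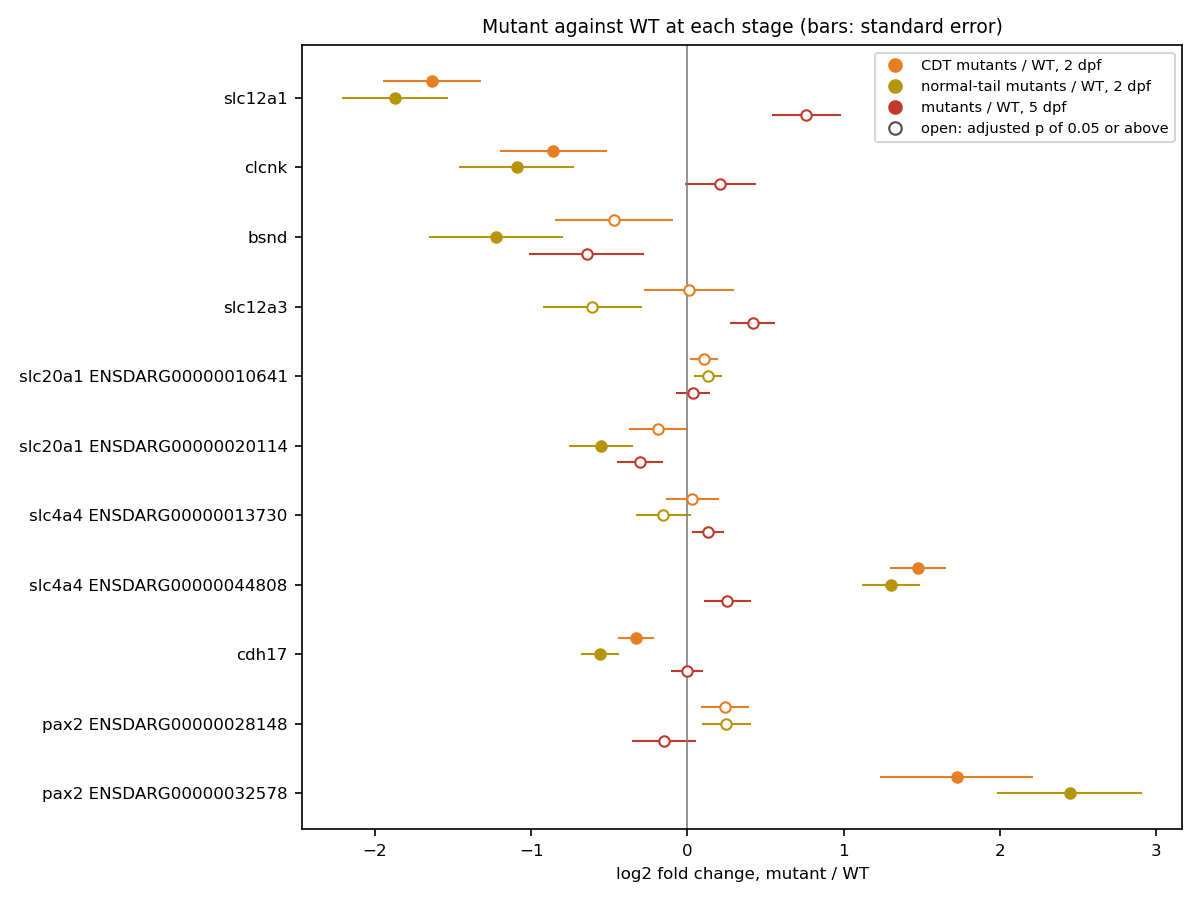
Log2 fold change of mutant over WT (horizontal axis) for each identifier, in CDT mutants and normal-tail mutants at 2 dpf and in mutants at 5 dpf; bars are standard errors and open points have an adjusted p of 0.05 or above. *slc12a1* stands at −1.63 and −1.87 at 2 dpf and at 0.76 at 5 dpf, and no identifier is filled at 5 dpf.

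CDT and normal-tail mutants came from the same kind of cross and differ in tail form. No member was called between them, 0 of 11 higher and 0 of 11 lower by edgeR and by DESeq2, where 0.657% of all genes were called higher and 0.295% lower. At an unadjusted p under 0.05 there were 2 of 11 members, and 2071 of all 19636 genes. *slc12a3* stood 0.62 higher on the log2 scale in CDT mutants (SE 0.30, adjusted p = 0.464), and *pax2* ENSDARG00000032578 had a log2 fold change of −0.72 there (SE 0.35, adjusted p = 0.456). The *slc12a1* libraries, at 1.42 and 1.46 CPM in CDT mutants and at 1.03 and 1.38 CPM in normal-tail mutants, lay next to each other.

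At 5 dpf none of the 10 identifiers tested was called between mutants and WT by edgeR or DESeq2, where 1.28% of 20071 genes were called higher and 2.56% lower. An unadjusted p under 0.05 was found for 3400 of the 20071 genes and for 2 of the 10 identifiers, so the members were near the genes at large. Those 2 were the cotransporter genes of the distal segments, and both were higher in the mutants. *slc12a1* had 7.69 and 7.12 CPM in mutants, against 3.67 and 5.05 CPM in WT. The libraries did not overlap, and the mutants were higher by 0.76 on the log2 scale (SE 0.22, adjusted p = 0.0701). It was called without replicate 2 of WT (1.01, adjusted p = 0.0418), with all 10 libraries in 1 fit (adjusted p = 0.0483) and with library size alone (adjusted p = 0.0425), and among the fits that did not call it the adjusted p went up to 0.244 with DESeq2 and to 0.343 without replicate 1 of WT. *slc12a3* had 14.6 and 15.4 CPM in mutants, against 10.9 and 11.5 CPM in WT (log2 fold change 0.42, SE 0.14, adjusted p = 0.130).

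The other 8 identifiers tested at 5 dpf had an unadjusted p of 0.05 or above. *clcnk* had 5.38 and 4.89 CPM in mutants, against 4.71 and 4.16 CPM in WT, and *cdh17* had 122 and 112 CPM in mutants, against 119 and 115 CPM in WT. *bsnd* had 2.09 and 1.11 CPM in mutants, against 2.42 and 2.59 CPM in WT. Both mutant libraries lay below WT, and the lower mutant value came from the library with the highest mitochondrial share, whose part in it was not tested. *slc20a1* ENSDARG00000010641 had 111 and 127 CPM in mutants, against 110 and 122 CPM in WT, and ENSDARG00000020114 had 25.6 and 23.1 CPM in mutants, against 24.9 and 35.1 CPM in WT. The *slc4a4* identifiers had 57.2 and 56.7 CPM in mutants, against 53.2 and 50.7 CPM in WT, for ENSDARG00000013730, and 12.5 and 13.6 CPM in mutants, against 10.9 and 10.9 CPM in WT, for ENSDARG00000044808. *pax2* ENSDARG00000028148 had 7.17 and 6.60 CPM in mutants, against 8.77 and 6.50 CPM in WT. *pax2* ENSDARG00000032578, too low to be tested, had 3 and 3 counts in mutants, against 5 and 4 counts in WT, a scaled ratio of 0.772 with a 95% counting interval of 0.226 to 2.43.

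Between the stages, most transporter genes were higher at 5 dpf. Both *pax2* identifiers were called lower at 5 dpf in mutants, and 1 of them in WT. In WT, 6 of 11 identifiers were higher and 1 lower at 5 dpf than at 2 dpf, where 31.3% of all 21016 genes were called higher and 29.5% lower. In mutants, 7 were higher and 2 lower at 5 dpf than in the mean of both tail forms at 2 dpf, where 33.1% and 29.6% of all genes were called. *slc4a4* ENSDARG00000013730 had a log2 fold change of 2.60 in mutants (SE 0.10) and 2.33 in WT (SE 0.13), and *slc12a3* had 2.57 in mutants (SE 0.16) and 1.78 in WT (SE 0.20). *slc20a1* ENSDARG00000020114 was higher by 2.03 in mutants (SE 0.14) and by 1.88 in WT (SE 0.17), and *cdh17* by 2.13 in mutants (SE 0.09) and by 1.61 in WT (SE 0.11). *slc20a1* ENSDARG00000010641 was higher by 0.39 in mutants (SE 0.08) and by 0.40 in WT (SE 0.10). The adjusted p of these 10 values was at most 0.00075. With library size alone the change of *slc20a1* ENSDARG00000010641 in mutants was 0.07 (adjusted p = 0.484).

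For 4 identifiers the stages passed the test in one genotype and not in the other. *slc12a1* was higher at 5 dpf in mutants, by 2.48 on the log2 scale (SE 0.23, adjusted p = 2.8e-10), whereas its WT libraries overlapped, at 3.67 and 5.05 CPM at 5 dpf and 4.14 and 5.37 CPM at 2 dpf. *clcnk* was higher by 1.78 in mutants (SE 0.25, adjusted p = 6.5e-07) and by 0.52 in WT (SE 0.28, adjusted p = 0.107). *slc4a4* ENSDARG00000044808 was higher by 0.94 in WT (SE 0.19, adjusted p = 9.6e-05), and in mutants its libraries overlapped, at 12.5 and 13.6 CPM at 5 dpf and 11.98 to 17.2 CPM at 2 dpf. *bsnd* was called in neither genotype.

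*pax2* ENSDARG00000028148 was lower at 5 dpf in mutants, at −0.78 on the log2 scale (SE 0.15, adjusted p = 7.4e-05), and in WT, with −0.47 (SE 0.17, adjusted p = 0.0221). The WT call was lost without replicate 2 of WT at 5 dpf (−0.26, adjusted p = 0.285), without replicate 1 of WT at 2 dpf (−0.51, adjusted p = 0.0561) and without replicate 2 of WT at 2 dpf (−0.43, adjusted p = 0.0942), and was not made by DESeq2 (adjusted p = 0.0629). *pax2* ENSDARG00000032578 was called lower at 5 dpf in mutants (adjusted p = 6.7e-06) and was not called in WT (adjusted p = 0.321). In this fit it passed the filter on low counts only through the mutant libraries at 2 dpf, so the filter favored a call of lower in mutants. It had 6 counts in both mutant libraries together at 5 dpf, against 124 in the 4 mutant libraries at 2 dpf, a scaled ratio of 0.105 with a 95% counting interval of 0.0379 to 0.236. In WT it had 9 counts at 5 dpf, against 12 at 2 dpf, a ratio of 0.564 with an interval of 0.210 to 1.46.

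**Figure D3:**
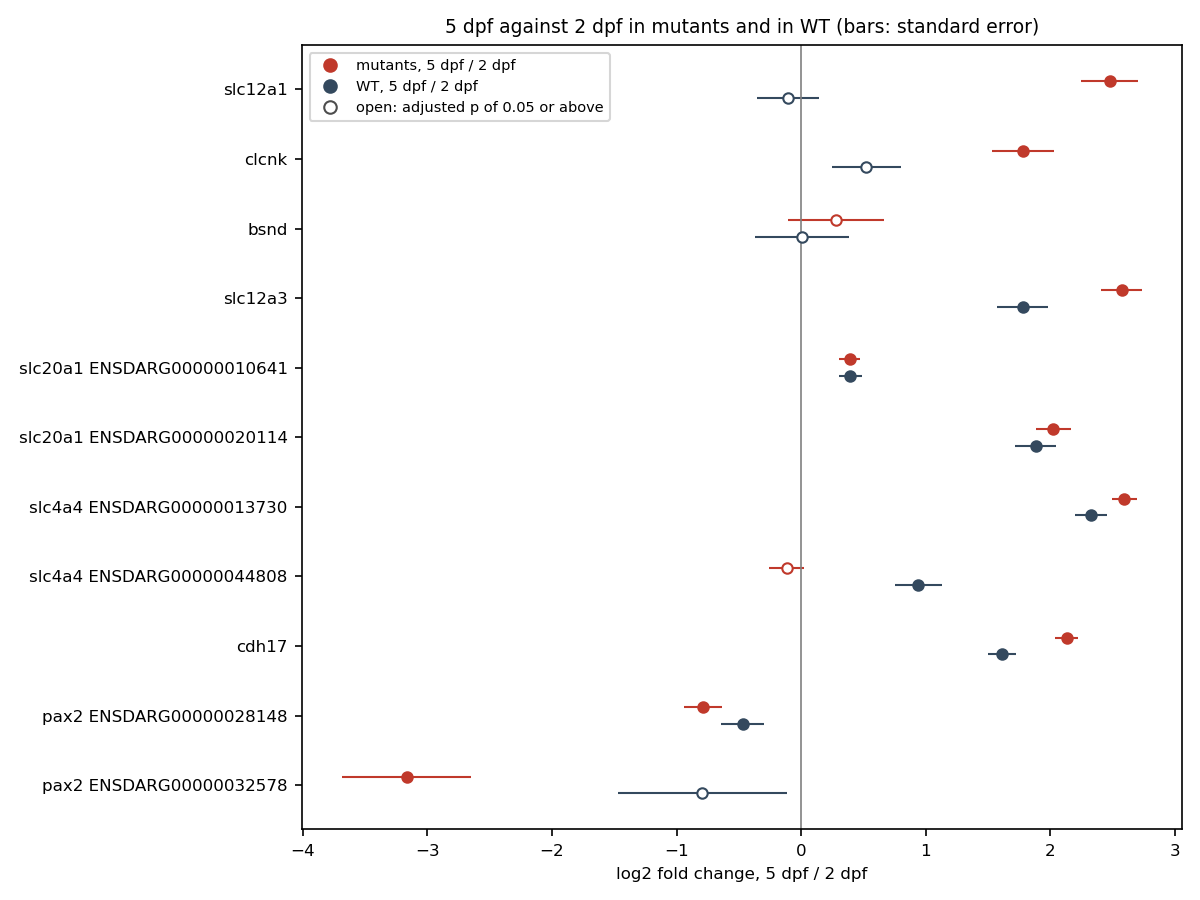
Log2 fold change of 5 dpf over 2 dpf (horizontal axis) for each identifier in mutants, taken against the mean of both tail forms at 2 dpf, and in WT; bars are standard errors and open points have an adjusted p of 0.05 or above. *slc12a1* is higher by 2.48 in mutants and open in WT, and *slc4a4* ENSDARG00000044808 is higher by 0.94 in WT and open in mutants.

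The difference itself, that is the genotype difference at 5 dpf minus the mean genotype difference at 2 dpf, was tested in all 10 libraries. It was called for 5 of 11 identifiers, 4 positive and 1 negative, where 14.7% of 21016 genes were positive and 8.74% negative. *slc12a1* had the largest, 2.59 on the log2 scale (SE 0.34, adjusted p = 5.7e-06), and it was kept under all 8 alternatives and with any of the 10 libraries left out. *clcnk* had 1.26 (SE 0.38, adjusted p = 0.0171), *slc12a3* 0.79 (SE 0.27, adjusted p = 0.0363) and *cdh17* 0.52 (SE 0.15, adjusted p = 0.0109). *slc4a4* ENSDARG00000044808 had −1.06 (SE 0.24, adjusted p = 0.0018), which was also kept under all 8 alternatives and all 10 left-out libraries.

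The other 3 calls of this difference were less stable. With DESeq2 they stood at adjusted p = 0.051 for *clcnk* and 0.0967 for *slc12a3*, and with library size alone at 0.106 and 0.339. For *clcnk* the call was lost without replicate 1 of WT at 2 dpf (0.97, adjusted p = 0.156) and without replicate 2 of WT at 5 dpf (1.16, adjusted p = 0.0568), and for *cdh17* without replicate 2 of WT at 2 dpf (0.44, adjusted p = 0.0906) and with library size alone (0.09, adjusted p = 0.682). For *slc12a3* it was kept in 2 of 10 fits with a library left out, those without replicate 2 of the CDT mutants or replicate 2 of WT at 2 dpf, and in the other 8 the adjusted p was 0.0531 to 0.321. The lowest value, 0.53, came without replicate 1 of WT at 2 dpf, the library with the higher *slc12a3* level of that group. For *pax2* ENSDARG00000032578 the difference was −2.37 (adjusted p = 0.0651).

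Other genes of the kidney were taken from lists by segment, given here with the symbols of the gene table. Their counts stand against the shares over all genes given above, at 2 dpf 20.0% higher and 20.4% lower in CDT mutants and 19.2% higher and 20.4% lower in normal-tail mutants, and at 5 dpf 1.28% higher and 2.56% lower. Of 14 distal tubule and duct identifiers tested, 5 rose and 2 fell in CDT mutants and 4 rose and 2 fell in normal-tail mutants at 2 dpf. *clcn2c*, a chloride channel gene, rose by 1.25 and 0.96. It is also counted in the list of skin ionocyte genes below, and the tissue of its rise was not tested. KLHL3, whose product targets WNK kinases that control *slc12a3* in mammals, rose by 1.07 and 0.99. *nccrp1* fell by 0.88 and 0.89. In the same list *fxyd2* had 18.2 to 22.4 CPM in the 4 mutant libraries at 2 dpf, against 28.05 and 33.4 CPM in WT. KCNJ10 ENSDARG00000090815, a basolateral potassium channel gene, had 0.70 to 1.18 CPM in the 4 mutant libraries, against 0 and 0.19 CPM in WT. At 2 dpf this identifier passed the filter on low counts only through the mutant libraries, so the filter favored a call of higher. At 5 dpf 2 of 14 rose, *clcn2c* by 0.82 and STC1 ENSDARG00000058476, a calcium-regulating hormone gene, by 0.63.

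Proximal tubule genes moved both ways. Of 16 tested, 3 rose and 2 fell in CDT mutants, and 2 rose and 2 fell in normal-tail mutants. LRP2, the gene of the endocytic receptor megalin, rose by 1.00 and 0.99, and DAB2 ENSDARG00000053091, the gene of an endocytic adaptor, by 0.79 and 0.94. The other DAB2 identifier, ENSDARG00000031761, did not rise: it had 12.8 to 16.9 CPM in the 4 mutant libraries, against 18.9 and 16.2 CPM in WT. The scaffold gene *pdzk1* fell by 1.1 and 1.00, and GATM, a gene of creatine synthesis, by 0.99 and 0.96. These are levels in whole embryos, and the tissues in which these genes changed were not tested. At 5 dpf 1 of 19 rose and 3 fell, among them the sodium-sulfate cotransporter gene SLC13A1, with −0.70 (adjusted p = 0.0452). The DAB2 identifiers parted at 5 dpf. ENSDARG00000053091 had 16.3 and 18.4 CPM in mutants, against 22.2 and 27.45 CPM in WT. ENSDARG00000031761 had 31.6 and 31.1 CPM in mutants, against 23.7 and 27.8 CPM in WT. Of 18 transcription factor identifiers 4 rose in CDT mutants and 6 in normal-tail mutants. MECOM rose by 0.67 and 1.08, PPARGC1A by 1.12 and 1.02, and *lhx1a* by 0.44 and 0.50.

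In the glomerulus list 5 of 12 rose and 1 fell in CDT mutants, and 7 rose and 1 fell in normal-tail mutants. KIRREL1 ENSDARG00000001634, a slit diaphragm gene, rose by 0.83 and 0.92. The identifier ENSDARG00000073769, listed here for *magi2a*, passed the filter on low counts at 2 dpf only through the mutant libraries. Of 13 cystic kidney genes 4 rose in CDT mutants, and *pkd1a*, a polycystin gene, rose by 1.18 there and by 1.82 in normal-tail mutants. Of 6 genes of multiciliated cells, the cell type that carries the motile tufts of the tubule, the centrin gene *cetn4* fell by 0.52 and 0.48 and no other was called. Of 8 sodium pump identifiers 4 rose and 2 fell in CDT mutants, and 1 rose and 2 fell in normal-tail mutants. The alpha subunit gene *atp1a1a.4* fell by 0.41 and 0.74, and its sign in CDT mutants turned with library size alone (0.047).

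**Figure D4:**
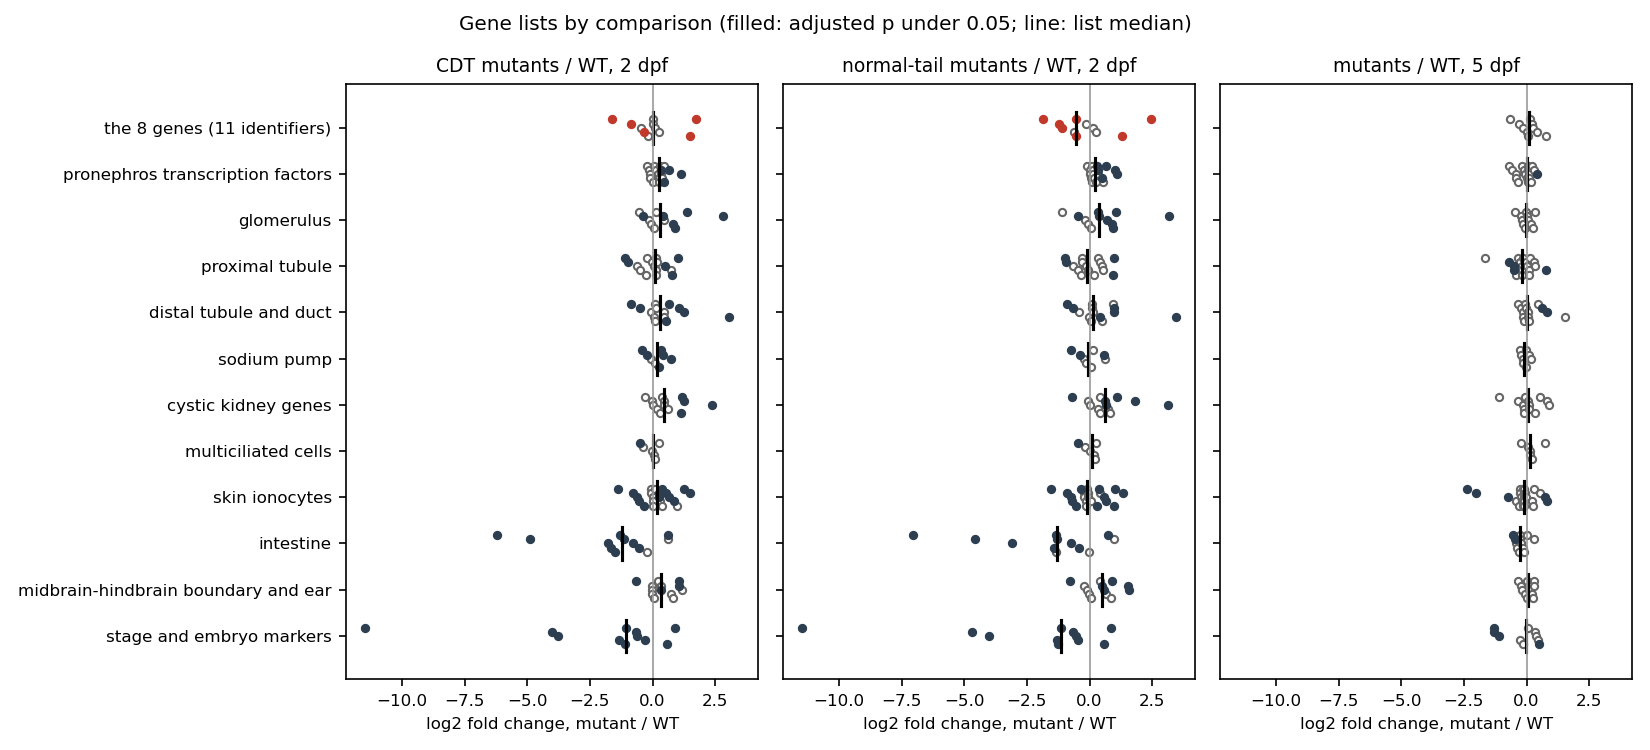
Log2 fold change of mutant over WT (horizontal axis) of every tested gene in 12 lists (rows), in CDT mutants at 2 dpf, normal-tail mutants at 2 dpf and mutants at 5 dpf; filled points have an adjusted p under 0.05 and lines are list medians. The intestine and stage lists lie left of 0 at 2 dpf, with medians of −1.21 and −1.07 in CDT mutants, and the kidney lists spread to both sides.

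Markers of other tissues and of the stage also differed between the genotypes at 2 dpf. The counts of these lists stand against the same shares over all genes as those of the kidney lists. Of 11 stage and embryo markers 2 were higher and 9 lower in both kinds of mutant, with medians of −1.07 in CDT mutants and −1.15 in normal-tail mutants. Their summed level was 36490 to 36798 CPM in CDT mutants and 35472 to 38630 CPM in normal-tail mutants, against 58346 to 62946 CPM in WT. The hatching enzyme gene *he1.1* had 469 to 536 CPM in the 4 mutant libraries, against 1146 and 1235 CPM in WT. The trypsin gene *prss59.1*, which in WT stood at 24.4 and 30.0 CPM at 2 dpf and at 3063 and 2174 CPM at 5 dpf, was at 0 in all 4 mutant libraries at 2 dpf. Of 12 intestine identifiers 1 was higher and 9 lower in CDT mutants, and 1 higher and 8 lower in normal-tail mutants. Their summed level was 5026 to 5351 CPM in CDT mutants and 4822 to 4925 CPM in normal-tail mutants, against 10995 to 12056 CPM in WT. In WT at 5 dpf the sum was 4075 to 4338 CPM, although 10 of the 12 identifiers were higher there than at 2 dpf and 2 lower. The sum thus follows the most abundant identifiers of the list and does not measure the amount of intestine. The part of these stage and tissue differences in the lower *slc12a1*, *clcnk*, *bsnd* and *cdh17* levels was not tested.

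Skin ionocyte genes went both ways, with 8 of 22 identifiers higher and 5 lower in CDT mutants and 7 higher and 6 lower in normal-tail mutants. Their summed level was 1070 to 1072 CPM in CDT mutants and 1002 to 1068 CPM in normal-tail mutants, against 1137 to 1138 CPM in WT. Among those called higher, the ionocyte sodium-chloride cotransporter gene *slc12a10.2* rose by 1.5 in CDT mutants and by 1.33 in normal-tail mutants. It does not stand for the list, whose median log2 fold change was 0.17 in CDT mutants and −0.09 in normal-tail mutants. Of 13 markers of the midbrain-hindbrain boundary and ear, where *pax2a* is also used, 3 were higher and 1 lower in CDT mutants and 5 higher and 1 lower in normal-tail mutants, at a summed 111 to 113 CPM in CDT mutants and 118 to 120 CPM in normal-tail mutants, against 100.2 to 103 CPM in WT. The 3 thyroid genes together did not exceed 1.21 CPM in any library at 2 dpf. The part of these tissues in the levels of *slc4a4* and *pax2* was not tested.

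Across the 10 libraries *clcnk* and *slc12a1* had a Pearson correlation of 0.91 of log2 CPM, given as a description, since the points share stage and genotype groups. *slc12a3*, *cdh17*, *slc4a4* ENSDARG00000013730 and *slc20a1* ENSDARG00000020114 had correlations of 0.96 to 0.98 with each other. *bsnd* had correlations of −0.59 to 0.44 with the other members, and *slc4a4* ENSDARG00000044808 of −0.48 to 0.36. Among 18164 genes with a symbol and a mean of at least 1 CPM, the 3 most like *slc12a1* were EEF2K (0.992), *cldnb* (0.979) and HBE1 (0.977). Those most like *clcnk* were *arl5c* (0.980), WDR45 (0.976) and PYGM (0.974), and those most like *bsnd* were *gfra4b* (0.918), SAT1 (0.912) and *eps8l1b* (0.907). For *slc12a3* they were *pex26*, *cldn29* and ARG2 (0.991 to 0.995), and for *cdh17* *si:dkey-200l5.4*, CSRP1 and *cldn15a* (0.997 to 0.999). The sodium pump gene *atp1a1a.4* was the closest to *slc20a1* ENSDARG00000020114 (0.993), GYS1 to *slc4a4* ENSDARG00000013730 (0.998) and *plecb* to *slc4a4* ENSDARG00000044808 (0.983). ATP8A2 was the closest to *slc20a1* ENSDARG00000010641 (0.986), TMEM169 to *pax2* ENSDARG00000028148 (0.981) and ZSWIM5 to *pax2* ENSDARG00000032578 (0.988).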

How the data were processed

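Poly(A) RNA was sequenced by the authors as read pairs of 150 bp. Per the labels and the study's methods, reads were trimmed (Trim Galore 0.4.4), mapped on GRCz11 (STAR 2.7.3a) and assigned to genes (HTSeq 0.12.3, default mode). The deposited values are raw counts per gene, not normalized, and 42.5% to 44.3% of reads fell on genes and 45.6% to 47.3% on none. The 5 counters that name no gene were left out. Depth was 9101264 to 17536165 counts on genes. Counting intervals cover counting error only.

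Groups came from the labels. Nothing states that the 2 libraries of a group came from separate crosses, so p-values measure only the spread between these pools. Replicates differed by more than counting noise (chi-square per degree of freedom 2.82 to 7.74).

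edgeR 4.0.16 in R 4.3.3 was run on all genes (TMM scaling, filterByExpr by group, quasi-likelihood F test), with Benjamini-Hochberg adjustment and calls at an adjusted p under 0.05. The 6 libraries at 2 dpf and the 4 at 5 dpf were fitted separately, and all 10 together for the stage comparisons. Standard errors were derived from F. The tests were checked on simulated data. Alternatives were DESeq2 1.42.0, library size alone, upper quartile scaling, no filter, the replicate block, a minimum of 10 counts in every library, only the 4 libraries compared, all 10 libraries, and each library left out; each tail form alone was added after the data were seen.

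The members and lists were chosen with earlier results of these data known. Named genes were the members in every comparison and, of other lists, at most 4 per list and comparison with the largest change among those called without overlap of libraries; summaries of marker levels name others. Symbols matched 28988 identifiers. No sequences, positions or lengths were used here, so levels were not compared between genes. A result for 1 gene of the cystic kidney list is not reported here.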

Additional observations from a re-analysis of the deposited data

Results flagged for a closer look

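For 5 members the genotype difference at 5 dpf differed from that at 2 dpf by the interaction term of edgeR's quasi-likelihood test over all 10 libraries with Benjamini-Hochberg adjustment. The difference of differences was 2.59 on the log2 scale for *slc12a1*, 1.26 for *clcnk*, 0.79 for *slc12a3*, 0.52 for *cdh17* and −1.06 for *slc4a4* ENSDARG00000044808. For *slc12a1* every mutant library was above both WT libraries at 5 dpf and every mutant library was below both at 2 dpf. Against the CDT mutants alone at 2 dpf the value was 2.47 for *slc12a1* and 0.49 for *slc12a3* (adjusted p = 0.246), and 0.40 for *cdh17* (adjusted p = 0.0672).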

How the results depend on the processing

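Where 1 library is left out, its group keeps a lone one, assumed to vary like the other groups. Members called lower in CDT mutants at 2 dpf were 3, and 1 with DESeq2, where 20.4% and 15.7% of all genes were lower. In normal-tail mutants they were 5, and 2 with DESeq2, where 20.4% and 15.1% of all genes were lower. With library size alone, 5 members were called higher and 1 lower in CDT mutants (52.0% and 4.70% of all genes). In normal-tail mutants 4 were called higher and 1 lower (49.6% and 5.08%). At 5 dpf 1 was called higher (2.81%), and 0 fell with stage in WT (25.6%). The difference between stages was positive for 1 and negative for 4 (3.02% and 25.2% of all genes). The signs of *cdh17* (0.13) and *atp1a1a.4* (0.047) in CDT mutants and of ATP1B1 ENSDARG00000013144 in normal-tail mutants (0.057) turned under that setting. With at least 10 counts in every library, 1 member was higher in each kind of mutant, 0 fell with stage in WT and 1 in mutants, where *pax2* ENSDARG00000032578 was no longer tested. DESeq2 gave 0 members lower with stage in WT (26.4% of all genes) and a positive difference between stages for 2 (11.3% of all genes). Against CDT mutants alone this difference was positive for 2 (13.0% of all genes), and against normal-tail mutants alone negative for 2 (7.70%).

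Same-numbered replicates did not deviate together (correlations of −0.09 to 0.04 between groups). With the replicate block 1 member was called higher at 5 dpf, *slc12a1* (adjusted p = 0.0374), and no other member's call changed. With all 10 libraries in 1 fit that count was also 1. Over the left-out libraries, members called were 1 to 2 higher and 1 to 3 lower in CDT mutants, 2 to 3 lower in normal-tail mutants, 0 to 1 higher at 5 dpf and 0 to 1 lower with stage in WT, and the difference between stages was positive for 2 to 4. Counts of 10 to 57 a library limit *slc12a1*, *clcnk* and *bsnd* at 2 dpf.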
